A study of Mus musculus with 16 samples.

Results

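Described here are the genes for matrix metalloproteinases (Mmp), membrane-anchored ADAM proteases, secreted ADAMTS proteases and the tissue inhibitors of metalloproteinases (Timp). They were taken by name, as every protein-coding gene called Mmp, Adam, Adamts or Timp followed by a number. That gave 78 of the 54532 genes in the table, of which 22046 were protein coding. The 78 were 22 Mmp, 33 Adam, 19 Adamts and 4 Timp genes. Mmp1a matched by name but was annotated as a polymorphic pseudogene and was left out.

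RNA had been sequenced from 16 libraries, all labelled as mouse hepatocytes and as a cell line, in 5 groups. Hepatocytes had been grown with Phgdh knockout cancer cells plus a CXCR2 inhibitor (KO+CXCR2i, n = 4), with Phgdh wild-type cancer cells plus the inhibitor (WT+CXCR2i, n = 3), with knockout cells (KO co-culture, n = 3), with wild-type cells (WT co-culture, n = 3), or on their own (monoculture, n = 3). Phgdh starts the pathway that makes serine from a glycolytic intermediate, and by the labels its knockout was in the cancer cells and not in the hepatocytes. CXCR2 is a chemokine receptor. The labels name neither the inhibitor nor its vehicle, amount or duration, do not say how many knockout clones were used or whether both cell types shared a well, and no group had the inhibitor without cancer cells. They also do not say whether replicates were separate cultures, so the p-values below measure only the spread between these libraries. The series' design text names the cancer line HY19636 as the sequenced material, against the labels, which were followed here.

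Matrix metalloproteinases cut collagens and other matrix proteins, ADAM proteases release growth factors, cytokines and receptors from the cell surface, and ADAMTS proteases act on proteoglycans, procollagens and microfibrils. Most are made as inactive proenzymes that need activation, often by furin-like convertases, and TIMP proteins block them by binding the catalytic zinc site. In liver, the balance of these proteases and TIMPs is known for its part in fibrosis and regeneration, with much of it made by stellate cells and macrophages rather than by hepatocytes.

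Values are FPKM, which scale the fragments of a gene by its length and by the depth of the library, and the libraries held 15.0 to 21.3 M fragments. The ratio of these fragments to the depth used in the scaling was 0.970 to 0.974 in the inhibitor groups. That ratio was 0.997 to 1.01 in the co-cultures without inhibitor and 1.025 to 1.028 in monoculture. Of 10 hepatocyte markers, 9 averaged at least 1 FPKM in both inhibitor groups, 6 in both co-cultures without it and 7 in monoculture, and Asgr1 stayed at or below 0.232 FPKM throughout. Their summed level was 966 to 1020 FPKM in KO+CXCR2i, 741 to 754 in WT+CXCR2i, 148 to 152 in KO co-culture, 125 to 130 in WT co-culture and 250 to 256 in monoculture. Alb (461 FPKM) and Ttr (258 FPKM) had the highest means among them in KO+CXCR2i. Summed markers of pancreatic cancer epithelium (3 of 8 at 1 FPKM or more with the inhibitor and in monoculture, and 2 in the other co-cultures) were 555 to 578, 590 to 635, 192 to 209, 202 to 230 and 294 to 309 FPKM in the same order. They came mostly from Msln and Krt19, were present in monoculture too, and Tff1 was at 0 in every library. None of 11 stellate cell and fibroblast markers reached a group mean of 1 FPKM, with Col1a2, Col3a1, Lum and Lrat at 0 and a summed level of at most 0.351. Of 6 macrophage markers only Cd68 reached a group mean of 1 FPKM, in the co-cultures (summed level 4.01 to 4.78, 4.39 to 5.75, 0.950 to 1.32, 1.27 to 1.58 and 0.501 to 1.45 FPKM), and Adgre1, Clec4f and Vsig4 were at 0. Phgdh was at 146 to 207 FPKM in every library. Cxcr2 RNA was above 0 in only 2 libraries, at most 0.0727 FPKM, and Cxcr1 RNA was at 0 in all. What this means for the inhibitor results was not tested. Mitochondrial genes took 1.86% to 2.11% of fragments with the inhibitor and 3.25% to 4.57% without. The part of these differences in the results below was not tested, and since these are bulk libraries, fewer cells of one type and less RNA per cell cannot be told apart.

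Of the 78 genes, 20 reached a group mean of 1 FPKM in at least 1 group and 58 did not. The 20 were 6 Mmp, 7 Adam, 5 Adamts and 2 Timp genes. By group, 19 reached 1 FPKM in KO+CXCR2i, 19 in WT+CXCR2i, 14 in KO co-culture, 16 in WT co-culture and 18 in monoculture. Of the 58, 18 had no fragment in any library, 13 of them Adam genes. Several family members best known from liver and tumour matrix were among the 58. Named here after their values were seen, they include the gelatinases Mmp2, with 1 fragment in all libraries together, and Mmp9, with 14. Timp3, the matrix-bound inhibitor, averaged 0.0654 FPKM over all libraries and Timp4 had 8 fragments in all.

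**Figure D1:**
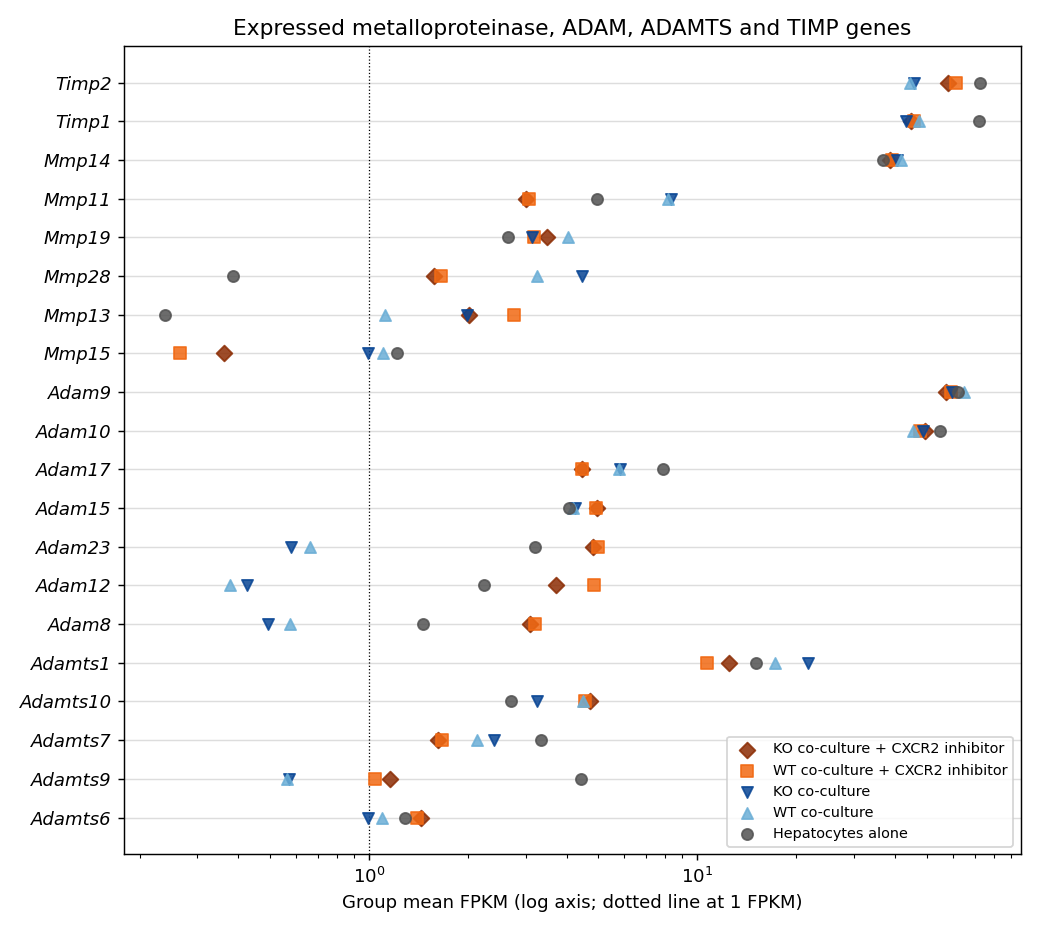
Group mean FPKM (log axis) of the 20 genes that reached 1 FPKM in at least 1 group, ordered by family name and then by mean FPKM, with one symbol per group and a dotted line at 1 FPKM. Timp2, Timp1, Mmp14, Adam9 and Adam10 lie far to the right in every group, while Adam12, Adam23 and Adam8 fall below 1 FPKM in both co-cultures without inhibitor.

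Levels were dominated by a few genes. Adam9 (57.4 to 64.9 FPKM over the group means), Timp2 (44.5 to 72.5), Timp1 (43.2 to 72.0), Adam10 (45.3 to 54.9) and Mmp14 (36.7 to 41.8) stood above all other members in every group. Adamts1 came next at 10.7 to 21.7 FPKM. The other 14 named genes stayed below 10 FPKM as group means.

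Summed over the family, Timp RNA was 103 ± 3.76 FPKM in KO+CXCR2i, 107 ± 5.28 in WT+CXCR2i, 89.1 ± 3.60 in KO co-culture, 91.8 ± 3.42 in WT co-culture and 145 ± 4.61 in monoculture (mean ± SD). Mmp RNA ran the other way between co-culture and monoculture, with 49.7 ± 0.456, 50.7 ± 1.81, 59.6 ± 2.26, 59.6 ± 1.29 and 47.0 ± 0.990 FPKM in the same order. Every library of KO and WT co-culture lay below every monoculture library for the Timp sum and above it for the Mmp sum. With the inhibitor, Timp sums were higher and Mmp sums lower than in the co-cultures without it, again with no overlap. Relative to their mean, Adam sums varied least of the 4 families, from 120 ± 5.19 FPKM in KO co-culture to 137 ± 2.22 in monoculture. Adamts sums were 21.8 ± 0.71, 19.7 ± 0.266, 29.1 ± 0.368, 25.8 ± 1.34 and 28.1 ± 0.571 FPKM. These sums are descriptions, without a test.

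**Figure D2:**
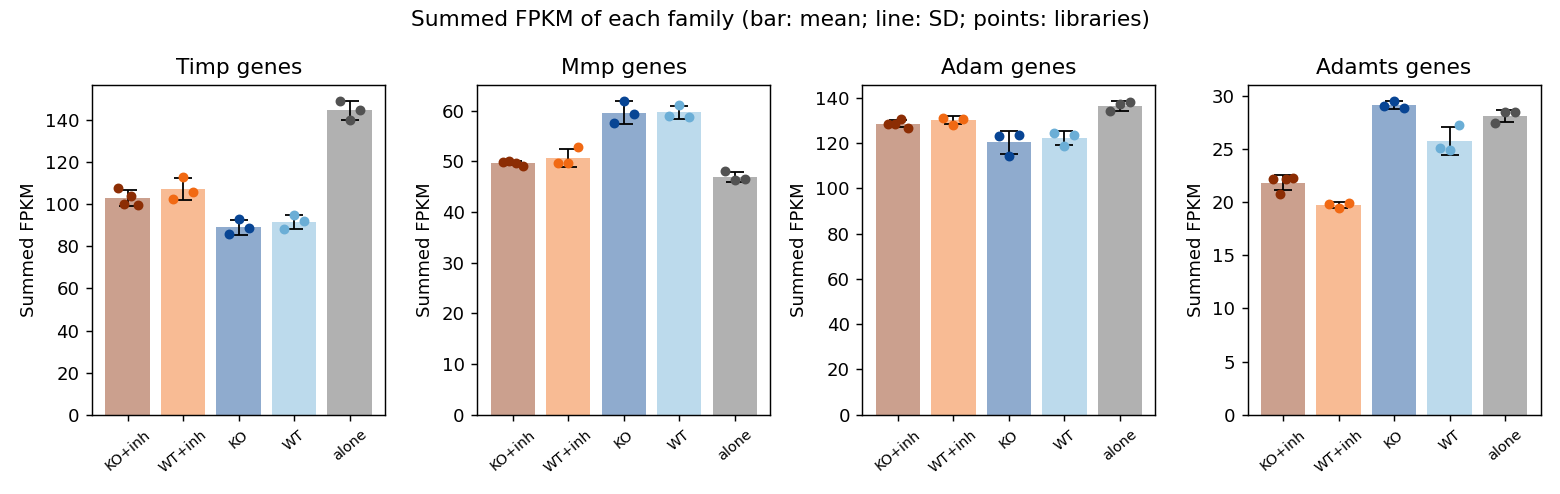
Summed FPKM of all Timp, Mmp, Adam and Adamts genes in each library (points), with the group mean (bar) and SD (line), for n = 4 libraries in KO+CXCR2i and n = 3 in the other groups. Timp sums are highest in monoculture, at 140.0 to 149 FPKM, and Mmp sums highest in the co-cultures without inhibitor, at 57.5 to 62.0 FPKM.

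Differences between groups were tested for the 19 members with a mean of at least 1 FPKM over all libraries, in a limma fit of log2(FPKM + 1) across 11395 genes. A gene passed at a Benjamini-Hochberg adjusted p under 0.05, and fold changes on this scale understate the change of low genes. Of the 19, 7 averaged below 1 FPKM in some group and entered the test through the groups where they were high, so counts over the 19 are descriptions. All 9 comparisons draw on the same 5 groups and share libraries.

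In KO co-culture against monoculture, 15 of the 19 passed (5 higher, 10 lower), where 61.5% of all tested genes did (30.3% higher, 31.2% lower). Libraries of both groups did not overlap for 15, against 67.1% of all genes. The median log2 fold change of the 19 was -0.17, against 0.01 over all tested genes. In WT co-culture against monoculture, 16 passed (7 higher, 9 lower), against 62% of all genes (30.1% higher, 31.9% lower), with medians of -0.13 and 0.01. For 18 the groups did not overlap, against 62.3% of all genes. Mmp28, Mmp13, Mmp11, Mmp14 and Adamts1 were higher in both co-cultures. Adamts9, Adam23, Adam12, Adam8, Timp1, Timp2, Adamts7, Adam17 and Adam10 were lower in both.

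The inhibitor changed 13 members in KO co-culture (8 higher, 5 lower), where 69.5% of all genes passed (34.8% higher, 34.7% lower). It changed 15 in WT co-culture (8 higher, 7 lower), against 66.6% of all genes (33.5% higher, 33% lower). Groups with and without inhibitor did not overlap for 13 members in KO and 14 in WT co-culture, against 70.6% and 66.5% of all genes. At a log2 fold change of at least 1, 5 members passed in KO and 4 in WT co-culture, against 10.9% and 10.5% of all genes. Median log2 fold changes of the 19 were 0.05 in KO and 0.03 in WT co-culture, and of all genes -0.01 in both. Adam12, Adam23, Adam8, Adamts9, Timp2, Adam15 and Adamts6 were higher with the inhibitor in both co-cultures, and Mmp11, Mmp28, Adamts1 and Adam17 were lower in both. Of these, Adam12, Adam23, Adam8, Adamts9 and Timp2 were lower in both co-cultures than in monoculture, and Mmp11, Mmp28 and Adamts1 were higher.

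Set against monoculture, the co-cultures with inhibitor still differed in most members. In KO+CXCR2i 17 members passed (8 higher, 9 lower), against 69.4% of all genes (33.3% higher, 36.1% lower). In WT+CXCR2i 16 did (8 higher, 8 lower), against 66.8% (32.1% higher, 34.7% lower). Groups did not overlap for 18 members in KO+CXCR2i and 17 in WT+CXCR2i, against 70.4% and 71.3% of all genes. At a log2 fold change of at least 1, 5 members passed in KO co-culture and 4 in WT co-culture against monoculture (8.58% and 8.95% of all genes). With the inhibitor 2 passed against monoculture in each genotype, Adamts9 and Mmp13, where 10.3% of all genes did for KO and 9.62% for WT cells.

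**Figure D3:**
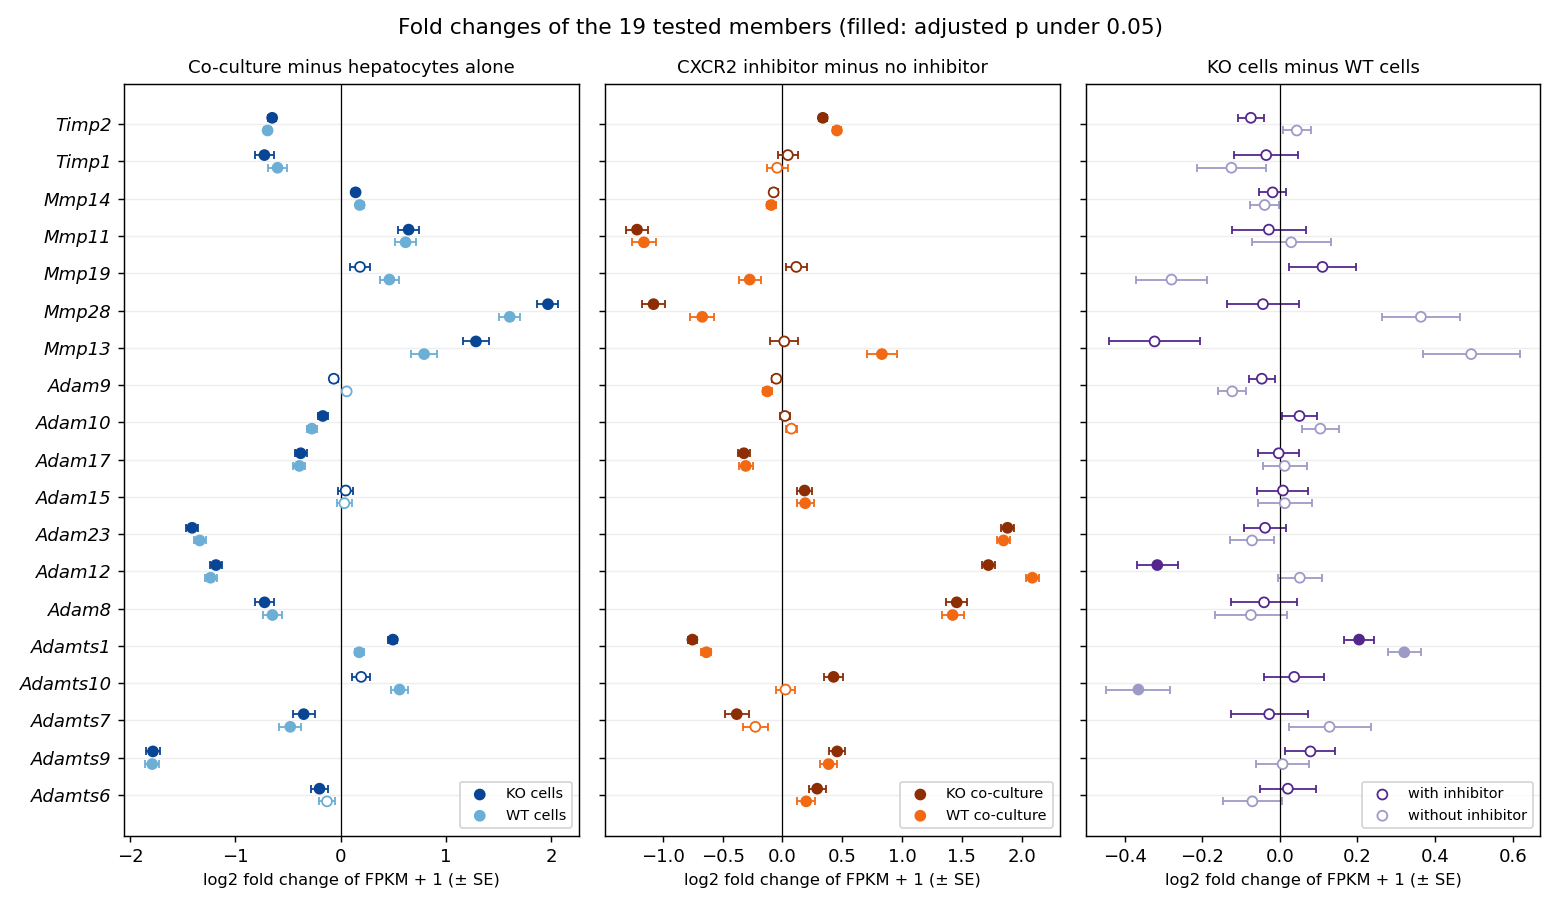
Log2 fold change of FPKM + 1 with its SE for the 19 tested genes, in co-culture against monoculture (left), with against without inhibitor (middle) and knockout against wild-type cancer cells (right), filled where the adjusted p was under 0.05. Symbols for knockout and wild-type co-cultures lie close together for most genes in the left and middle panels, and the right panel, on a narrower axis, has 2 filled symbols in each of its comparisons.

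The 2 Timp genes at measurable levels were both lower in co-culture. Timp1 (ENSMUSG00000001131, chromosome X, 20870166 to 20874735, GRCm38) encodes a secreted inhibitor of most soluble metalloproteinases. Timp1 had 49.7, 42.0, 45.2 and 41.7 FPKM in KO+CXCR2i and 41.4, 50.3 and 45.6 in WT+CXCR2i. Without inhibitor it had 42.2, 46.0 and 41.3 FPKM in KO co-culture, 42.1, 51.6 and 48.1 in WT co-culture, and 76.7, 66.9 and 72.4 in monoculture. All 13 co-culture libraries lay below the 3 monoculture libraries and overlapped among themselves. Against monoculture, the log2 fold change was -0.72 ± 0.09 (SE) in KO co-culture (adjusted p 5.67e-06) and -0.60 ± 0.09 in WT co-culture (adjusted p 3.67e-05). The inhibitor moved it by 0.05 (95% interval -0.13 to 0.22) in KO and -0.04 (-0.23 to 0.15) in WT co-culture, and neither passed (adjusted p 0.643 and 0.675).

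Timp2 (chromosome 11, 118301069 to 118355740) encodes an inhibitor that also joins MMP14 at the cell surface in the activation of pro-MMP2. It had 58.0, 58.0, 58.7 and 58.1 FPKM in KO+CXCR2i, 61.1, 62.6 and 60.4 in WT+CXCR2i, 43.5, 46.9 and 47.3 in KO co-culture, 46.1, 43.4 and 43.9 in WT co-culture, and 72.4, 72.9 and 72.3 in monoculture. The 3 levels of FPKM did not overlap: lowest in co-culture, intermediate with inhibitor and highest in monoculture. The call for WT+CXCR2i against monoculture was lost under quantile normalization (-0.09, adjusted p 0.0755). Against monoculture Timp2 was 1.58-fold lower in KO co-culture (adjusted p 6.58e-10) and 1.63-fold lower in WT co-culture (adjusted p 3.08e-10). With the inhibitor it was 1.27-fold higher in KO (adjusted p 3.97e-07) and 1.38-fold higher in WT co-culture (adjusted p 3.38e-08).

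Mmp14 (chromosome 14, 54431612 to 54445364) encodes a membrane-bound collagenase and was the most abundant Mmp transcript. Its libraries ranged from 37.9 to 39.5 FPKM in KO+CXCR2i, 37.7 to 41.0 in WT+CXCR2i, 39.6 to 41.8 in KO co-culture, 40.8 to 42.9 in WT co-culture and 36.3 to 37.3 in monoculture. Its differences were small, at 1.11-fold higher in KO co-culture (adjusted p 0.00372) and 1.14-fold higher in WT co-culture (adjusted p 5.80e-04) than in monoculture. The inhibitor call in WT co-culture (log2 fold change -0.09, adjusted p 0.0351) ended when WT+CXCR2i replicate 1 or 2 or WT co-culture replicate 1 or 2 was left out (-0.07, -0.08, -0.08 and -0.10). It also ended under quantile normalization (-0.06, adjusted p 0.167), scaling without mitochondrial and the 50 most abundant genes (-0.06, adjusted p 0.226), voom on recovered fragments (adjusted p 0.0568), only the groups compared (adjusted p 0.157) and the replicate block (adjusted p 0.0569). WT+CXCR2i passed against monoculture at 0.09 (adjusted p 0.047), and that call was lost without WT+CXCR2i replicate 2 or 3 or without any 1 monoculture library (0.05 to 0.10), with only the groups compared (adjusted p 0.0994) and under the replicate block (adjusted p 0.0726). KO+CXCR2i did not pass against monoculture in the main fit. It passed under quantile normalization (0.16, adjusted p 0.00176), the scaling named above (0.16, adjusted p 0.00216) and voom (0.09, adjusted p 0.0421). Mmp15, a related membrane-type metalloproteinase, missed the filter. It had 0.407, 0.278, 0.468 and 0.290 FPKM in KO+CXCR2i, 0.211, 0.319 and 0.264 in WT+CXCR2i, 0.922, 1.03 and 1.04 in KO co-culture, 1.27, 0.987 and 1.06 in WT co-culture, and 1.30, 1.14 and 1.22 in monoculture. Every inhibitor library lay below every other library.

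Short stretches of promoter are shown as examples for Mmp13, Mmp28, Adam8 and Adam23, which are among the 6 genes with the widest spread of group means. They are RefSeq windows of build GRCm38.p6, from 250 bases before to 50 bases after the start, and 48 of the 78 genes matched the table. Searched on both strands were the AP-1 site TGACTCA (or TGAGTCA), the cAMP response element TGACGTCA, the TATA box TATAAA (or TTTATA) and the GC box GGGCGG (or CCGCCC), and no match in these windows overlapped another. Capitals mark the matches.
Mmp13, chr9:7272264-7272563, plus strand: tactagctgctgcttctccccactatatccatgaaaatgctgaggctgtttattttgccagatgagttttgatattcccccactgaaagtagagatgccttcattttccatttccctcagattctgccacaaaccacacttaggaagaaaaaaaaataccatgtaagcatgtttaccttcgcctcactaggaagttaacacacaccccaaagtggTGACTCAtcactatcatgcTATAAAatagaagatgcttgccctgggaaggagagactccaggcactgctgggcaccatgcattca
Mmp28, chr11:83462991-83463290, minus strand: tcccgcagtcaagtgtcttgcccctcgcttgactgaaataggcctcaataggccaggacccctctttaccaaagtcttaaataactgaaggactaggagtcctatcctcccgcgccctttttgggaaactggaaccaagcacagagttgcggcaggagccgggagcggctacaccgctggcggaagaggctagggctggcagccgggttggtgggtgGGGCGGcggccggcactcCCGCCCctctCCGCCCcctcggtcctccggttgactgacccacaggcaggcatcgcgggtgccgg
Adam8, chr7:139992513-139992812, minus strand: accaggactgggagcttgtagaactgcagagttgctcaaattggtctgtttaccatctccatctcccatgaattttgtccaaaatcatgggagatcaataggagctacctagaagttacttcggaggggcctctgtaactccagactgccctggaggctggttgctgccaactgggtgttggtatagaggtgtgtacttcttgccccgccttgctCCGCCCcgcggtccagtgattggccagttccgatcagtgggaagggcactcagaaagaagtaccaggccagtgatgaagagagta
Adam23, chr1:63445641-63445940, plus strand: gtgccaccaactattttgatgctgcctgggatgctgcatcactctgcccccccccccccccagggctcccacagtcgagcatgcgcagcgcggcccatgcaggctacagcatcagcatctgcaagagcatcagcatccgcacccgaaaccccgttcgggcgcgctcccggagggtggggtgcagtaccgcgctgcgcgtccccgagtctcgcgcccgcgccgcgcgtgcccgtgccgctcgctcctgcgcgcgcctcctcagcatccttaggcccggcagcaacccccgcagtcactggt
In the Mmp13 window an AP-1 site begins 35 bases and a TATA box 16 bases before the start. The AP-1 letters occur in 5.20% of 32851 promoters in the table and the TATA letters in 13.6%. Among the 14 named genes with a window, Mmp13 alone held the AP-1 letters, while TATA letters were also found for Adamts1. Mmp28 held 3 GC boxes and Adam8 held 1, letters found in 35.7% of all promoters, and Adam23 held none of the 4 motifs. Adamts9, also among the 6 genes, held 1 GC box in a window not shown here, and Adam12 had no window. A match is a description of the letters and not evidence of binding.

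Mmp13 (chromosome 9, 7272514 to 7283331) encodes collagenase-3, the main fibrillar collagenase of rodents, and was nearly silent in monoculture. It had 1.92, 1.74, 2.13 and 2.28 FPKM in KO+CXCR2i and 2.77, 2.62 and 2.91 in WT+CXCR2i. Without inhibitor it had 1.77, 2.23 and 1.95 FPKM in KO co-culture, 1.14, 0.967 and 1.25 in WT co-culture, and 0.548, 0.0234 and 0.146 in monoculture. These monoculture values rest on 1 to 25 fragments a library, with replicate 1 well above the other two. Every co-culture library was above every monoculture library. Against monoculture the log2 fold change was 1.29 ± 0.13 in KO co-culture (adjusted p 5.01e-07) and 0.79 ± 0.13 in WT co-culture (adjusted p 6.83e-05), and without monoculture replicate 1 it was 1.46 and 0.97.

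The inhibitor raised Mmp13 in WT co-culture (0.83 ± 0.13, adjusted p 3.82e-05), where WT+CXCR2i libraries all lay above WT co-culture libraries. In KO co-culture the libraries with and without inhibitor overlapped (0.02 ± 0.12, 95% interval -0.24 to 0.27, adjusted p 0.914). The difference of both inhibitor effects was -0.82 ± 0.17 (adjusted p 0.0463), but leaving out any 1 of the 13 co-culture libraries ended that call (adjusted p 0.0586 to 0.119). Without inhibitor, KO co-culture libraries lay above WT co-culture libraries (0.49 ± 0.13, adjusted p 0.0507), and with it KO+CXCR2i lay below WT+CXCR2i (-0.32 ± 0.12, adjusted p 0.236). Neither passed, but the first did under quantile normalization (0.49, adjusted p 0.0371).

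Mmp28 (chromosome 11, 83440768 to 83463071) encodes epilysin, a secreted metalloproteinase with a furin cleavage site. It had 1.82, 1.49, 1.39 and 1.62 FPKM in KO+CXCR2i and 1.56, 1.95 and 1.47 in WT+CXCR2i. Without inhibitor it had 4.96, 4.29 and 4.07 FPKM in KO co-culture, 2.76, 3.74 and 3.21 in WT co-culture, and 0.317, 0.372 and 0.467 in monoculture. Monoculture, inhibitor and co-culture libraries formed 3 separate levels from low to high. Mmp28 was 11.5-fold higher in KO co-culture (adjusted p 2.92e-10) and 8.40-fold higher in WT co-culture (adjusted p 2.99e-09) than in monoculture. With the inhibitor it was 2.82-fold lower in KO (adjusted p 1.04e-07) and 1.95-fold lower in WT co-culture (adjusted p 3.40e-05).

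KO co-culture libraries lay above WT co-culture libraries for Mmp28 (log2 fold change 0.36 ± 0.10), a difference that did not pass (adjusted p 0.0743) and passed without WT co-culture replicate 2 (0.45, adjusted p 0.0461) and with voom (0.45, adjusted p 0.0421). The gene 1700020L24Rik overlaps 12% of the exon bases of Mmp28 on the other strand, and whether counting used strand is not given in the sources used here. It changed in the same directions, by 1.5 in WT co-culture against monoculture and by -0.83 with the inhibitor there.

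Mmp11 (chromosome 10, 75923222 to 75936496) encodes stromelysin-3, which furin activates inside the cell. It had 3.22, 2.97, 2.69 and 3.10 FPKM in KO+CXCR2i and 2.93, 3.12 and 3.17 in WT+CXCR2i. In the other groups it had 7.16, 9.0 and 8.77 FPKM in KO co-culture, 6.73, 9.17 and 8.55 in WT co-culture, and 4.55, 5.53 and 4.73 in monoculture. Co-culture libraries were highest and inhibitor libraries lowest, with monoculture between them and no overlap. It was 1.68-fold and 1.65-fold higher in KO and WT co-culture than in monoculture (adjusted p 6.75e-05 and 1.02e-04), and with the inhibitor 2.77-fold lower in KO and 2.65-fold lower in WT co-culture (adjusted p 3.30e-08 and 1.37e-07). Chchd10, on the other strand, shares 5.58% of its exon bases and moved the same way (2.33 in WT co-culture against monoculture, -1.02 with the inhibitor). Mmp19, a secreted metalloproteinase of the basement membrane, had group means of 2.65 to 4.04 FPKM. It was higher in WT co-culture than in monoculture (0.46 ± 0.09, adjusted p 5.16e-04) and lower with the inhibitor there (-0.27 ± 0.09, adjusted p 0.0170), a call that ended without WT+CXCR2i replicate 2 (-0.19) or WT co-culture replicate 2 (-0.22). Tmem198b shares 22.3% of its exon bases on the other strand.

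Adam10, which cuts Notch and many surface proteins, ranged from 42.9 to 55.7 FPKM over all libraries. It was 1.13-fold lower in KO co-culture (adjusted p 0.00664) and 1.21-fold lower in WT co-culture (adjusted p 1.63e-04) than in monoculture, and the KO call was lost under quantile normalization (-0.07) and when scaled without mitochondrial and the 50 most abundant genes (-0.12). Adam9, a broadly expressed family member, ranged from 56.2 to 67.2 FPKM and passed in 2 comparisons, at a log2 fold change of -0.12 in KO+CXCR2i against monoculture (adjusted p 0.00670) and -0.13 with the inhibitor in WT co-culture (adjusted p 0.00603). Scaled without mitochondrial and the 50 most abundant genes, neither Adam9 call held (-0.02, adjusted p 0.679, and -0.09, adjusted p 0.0650). The first also changed sign under quantile normalization (0.018). Its difference between WT co-culture and monoculture (0.06, adjusted p 0.175) passed under quantile normalization (0.19, adjusted p 0.00132) and that scaling (0.12, adjusted p 0.0208). Adam15, a membrane protease with an integrin-binding motif, was 1.17-fold higher with the inhibitor in KO (adjusted p 0.0213) and 1.18-fold higher in WT co-culture (adjusted p 0.0273). These Adam15 calls ended without KO+CXCR2i replicate 3 (0.16) or KO co-culture replicate 1 (0.11), and without WT+CXCR2i replicate 2 (0.15) or WT co-culture replicate 3 (0.16). Quantile normalization ended both, at 0.07 in KO (adjusted p 0.319) and 0.09 in WT co-culture (adjusted p 0.263), and the WT call was lost with no filter on low values (adjusted p 0.0536). An antisense gene, 4731419I09Rik, shares 20.6% of its exon bases but reached at most 0.0428 FPKM.

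Adam17 (chromosome 12, 21323509 to 21373632) encodes the enzyme that releases tumour necrosis factor and several ligands of the epidermal growth factor receptor. It had 4.87, 4.14, 4.43 and 4.41 FPKM in KO+CXCR2i and 4.37, 4.61 and 4.43 in WT+CXCR2i. The other libraries had 5.98, 5.42 and 6.10 FPKM in KO co-culture, 6.12, 5.80 and 5.40 in WT co-culture, and 7.86, 7.81 and 7.96 in monoculture. Monoculture libraries were highest and inhibitor libraries lowest, with the co-cultures without inhibitor between them and no overlap. The log2 fold changes against monoculture were -0.38 in KO (adjusted p 4.09e-05) and -0.39 in WT co-culture (adjusted p 2.96e-05), and the inhibitor moved it by -0.32 in KO (adjusted p 8.09e-05) and -0.31 in WT co-culture (adjusted p 2.48e-04). Iah1, which shares 4.35% of its exon bases on the other strand, was higher in WT co-culture than in monoculture (0.62) and lower with the inhibitor (-1.03).

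Adam12, Adam23 and Adam8 shared one pattern, with their lowest levels in both co-cultures, more in monoculture and most with the inhibitor. Adam12 (chromosome 7, 133883199 to 134232146) encodes a protease that releases heparin-binding epidermal growth factor and is known in liver from activated stellate cells. It had 3.73, 3.71, 3.68 and 3.68 FPKM in KO+CXCR2i and 5.01, 4.95 and 4.61 in WT+CXCR2i. In the absence of inhibitor it had 0.382, 0.488 and 0.408 FPKM in KO co-culture, 0.435, 0.379 and 0.316 in WT co-culture, and 2.19, 2.16 and 2.38 in monoculture. KO+CXCR2i libraries all lay below WT+CXCR2i libraries, whereas both co-cultures without inhibitor overlapped.

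Against monoculture, Adam12 was 5.26-fold lower in KO co-culture (adjusted p 1.56e-10) and 5.96-fold lower in WT co-culture (adjusted p 8.99e-11). With the inhibitor it was 8.69-fold higher in KO (log2 fold change 1.72 ± 0.05, adjusted p 9.27e-13) and 12.9-fold higher in WT co-culture (2.09 ± 0.06, adjusted p 2.88e-13). The difference of these inhibitor effects was -0.37 ± 0.08 (adjusted p 0.0463), a call that held without WT co-culture replicate 1 and ended when any other of the 13 co-culture libraries was left out (adjusted p up to 0.132). Markers of stellate cells were near 0 in all groups, as given above.

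Adam23 (chromosome 1, 63445891 to 63596276) encodes a family member without protease activity that binds integrins and is known mainly from brain. It had 4.90, 5.01, 4.54 and 4.82 FPKM in KO+CXCR2i, 4.95, 4.94 and 5.02 in WT+CXCR2i, 0.517, 0.640 and 0.578 in KO co-culture, 0.707, 0.719 and 0.554 in WT co-culture, and 3.08, 3.38 and 3.14 in monoculture. The 3 levels were separate and both cancer cell genotypes overlapped in each. It was 5.53-fold lower in KO and 4.85-fold lower in WT co-culture than in monoculture (adjusted p 2.42e-11 and 4.12e-11). With the inhibitor it was 8.33-fold higher in KO and 7.53-fold higher in WT co-culture (adjusted p 4.22e-13 and 1.27e-12).

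Adam8 (chromosome 7, 139978932 to 139992562) encodes a surface protease best known from leukocytes. It had 2.73, 3.07, 3.60 and 3.0 FPKM in KO+CXCR2i, 3.11, 3.0 and 3.52 in WT+CXCR2i, 0.446, 0.408 and 0.621 in KO co-culture, 0.442, 0.546 and 0.730 in WT co-culture, and 1.45, 1.55 and 1.37 in monoculture. Again the genotypes overlapped and the 3 levels did not. Adam8 was 2.97-fold lower in KO and 2.55-fold lower in WT co-culture than in monoculture (adjusted p 8.37e-06 and 2.43e-05), and 6.30-fold higher with the inhibitor in KO and 5.61-fold higher in WT co-culture (adjusted p 1.29e-09 and 4.13e-09). Among leukocyte markers, Csf3r, Mpo, Adgre1, Clec4f and Vsig4 were at 0 in every library and Ptprc was at most 0.125 FPKM. The other neutrophil markers were S100a8, S100a9, Ly6g and Elane, at most 0.422, 0.240, 0.194 and 0.0970 FPKM in any library, and no neutrophil marker reached a group mean of 1 FPKM. Cd68 averaged 4.28 in KO+CXCR2i, 4.96 in WT+CXCR2i, 1.03 in KO co-culture, 1.34 in WT co-culture and 0.690 in monoculture. As for Adam12, Adam23 and Adam8, the summed hepatocyte and pancreatic epithelial markers given above were lowest in the co-cultures without inhibitor and highest with it. Single markers did not all follow the sums. Alb, Ttr, Krt19 and Krt7 did, while Apob averaged 47.8 FPKM in monoculture, 44.5 in KO+CXCR2i and 42.1 in WT+CXCR2i. Hnf4a averaged 49.8 FPKM in WT co-culture and 46.6 in monoculture. Muc1 was highest in monoculture and Epcam in WT co-culture. The part of these markers in the changes of the 3 Adam genes was not tested.

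**Figure D4:**
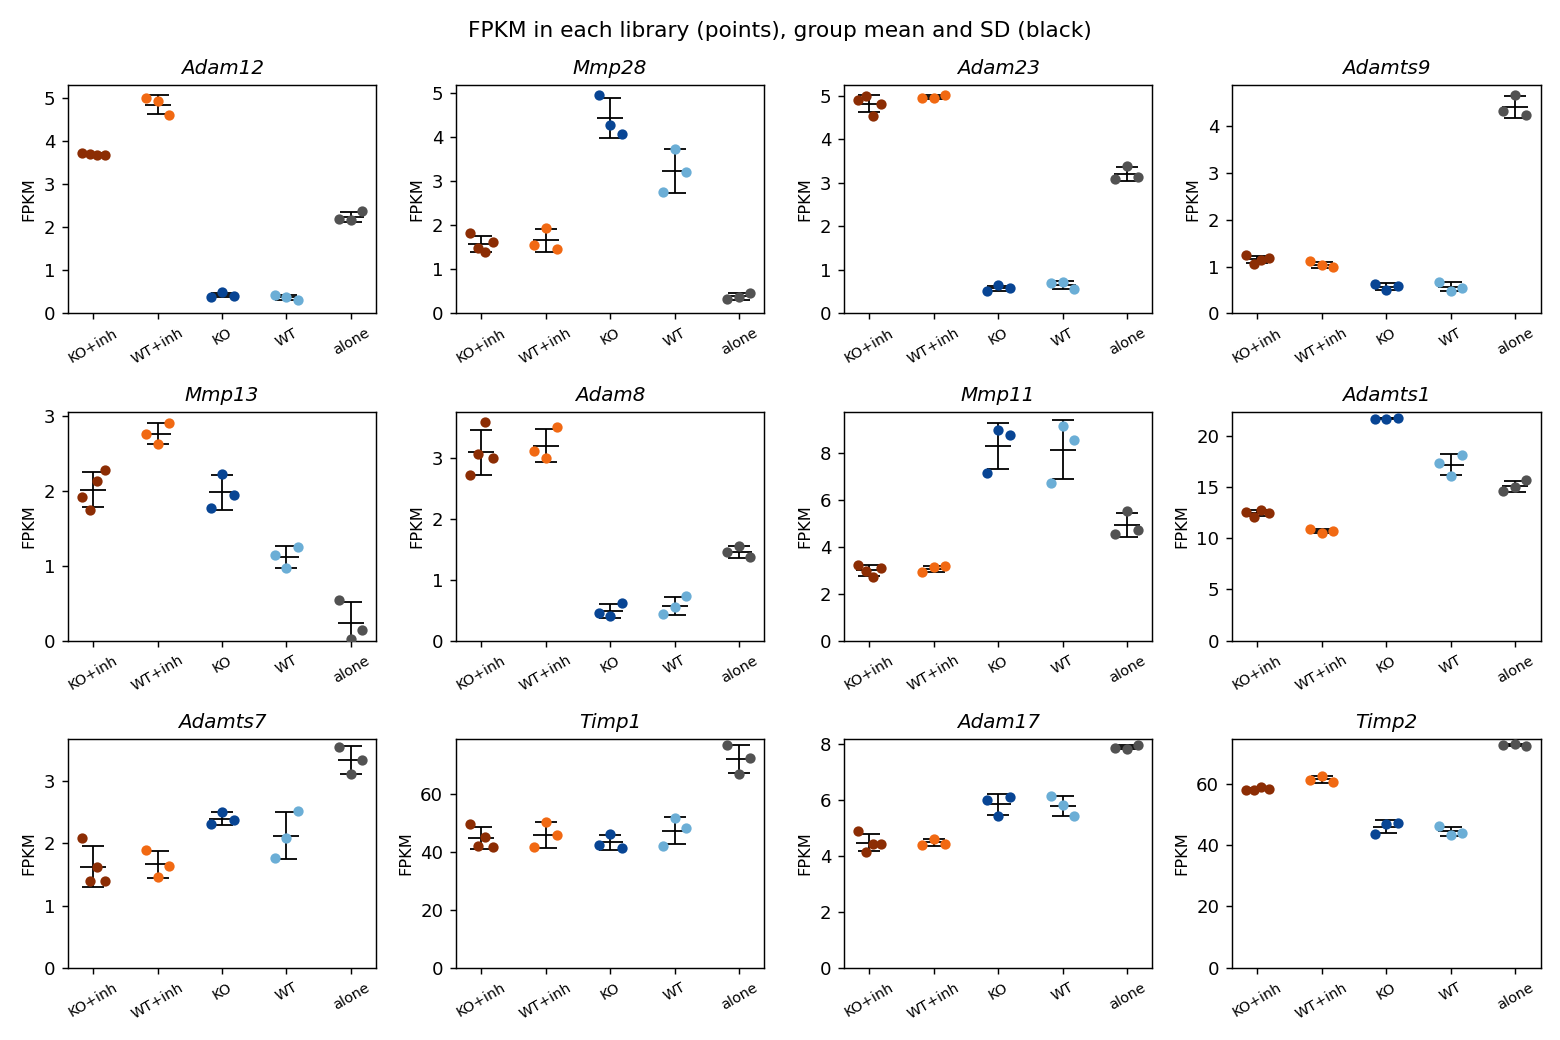
FPKM in every library (points) with group mean and SD for the 12 tested genes whose group means lay furthest apart, with n = 4 in KO+CXCR2i and n = 3 in the other groups. Adam12, Adam23 and Adam8 are lowest in both co-cultures, Mmp28 and Mmp11 highest there, and Adamts9, Adamts7, Adam17, Timp1 and Timp2 are highest in monoculture (alone).

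Of the 5 tested ADAMTS genes, Adamts9 had the widest difference between co-culture and monoculture and Adamts1 was most abundant. Adamts9 (chromosome 6, 92772699 to 92943492) encodes a protease of versican and aggrecan. It had 1.24, 1.06, 1.14 and 1.19 FPKM in KO+CXCR2i and 1.11, 1.03 and 0.986 in WT+CXCR2i. Without inhibitor it had 0.635, 0.491 and 0.585 FPKM in KO co-culture, 0.668, 0.480 and 0.542 in WT co-culture, and 4.32, 4.67 and 4.24 in monoculture. Monoculture stood far above all other libraries, and inhibitor libraries lay above co-culture libraries without it. The gene was 7.73-fold lower in KO and 7.82-fold lower in WT co-culture than in monoculture (adjusted p 1.35e-11 and 1.21e-11). With the inhibitor it was 2.03-fold higher in KO and 1.85-fold higher in WT co-culture (adjusted p 1.78e-05 and 1.81e-04), still 3.81-fold and 4.23-fold below monoculture (adjusted p 1.62e-10 and 2.35e-10). Under quantile normalization the inhibitor change in WT co-culture was 0.06 and did not pass (adjusted p 0.480).

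Adamts1 (chromosome 16, 85793827 to 85803113) encodes another versican- and aggrecan-cutting protease and was the member with a call between knockout and wild-type cancer cells both with and without inhibitor. It had 12.6, 12.1, 12.8 and 12.5 FPKM in KO+CXCR2i and 10.9, 10.5 and 10.8 in WT+CXCR2i. In the co-cultures without inhibitor it had 21.7, 21.7 and 21.8 FPKM with KO cells and 17.4, 16.1 and 18.1 with WT cells, and in monoculture 14.6, 15.0 and 15.7. The 5 groups did not overlap. It was 1.44-fold higher in KO and 1.14-fold higher in WT co-culture than in monoculture (adjusted p 1.06e-07 and 0.00215), and with the inhibitor 1.74-fold lower in KO and 1.61-fold lower in WT co-culture (adjusted p 3.36e-10 and 5.62e-09).

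Adamts7, which cuts cartilage oligomeric matrix protein, had 2.09, 1.40, 1.62 and 1.39 FPKM in KO+CXCR2i, 1.90, 1.47 and 1.63 in WT+CXCR2i, 2.31, 2.51 and 2.38 in KO co-culture, 1.77, 2.08 and 2.53 in WT co-culture, and 3.56, 3.11 and 3.35 in monoculture. All monoculture libraries were above all others, while WT+CXCR2i and WT co-culture overlapped. It was lower than monoculture in KO (-0.35 ± 0.11, adjusted p 0.0102) and WT co-culture (-0.48 ± 0.11, adjusted p 0.00121). The inhibitor lowered it in KO co-culture (-0.38 ± 0.10, adjusted p 0.00327), and in WT co-culture the change of -0.23 ± 0.11 did not pass (adjusted p 0.0731) but passed without WT+CXCR2i replicate 1 (-0.29) or WT co-culture replicate 1 (-0.31) and under quantile normalization (-0.41, adjusted p 0.00402). Adamts6, a relative of Adamts10, had group means of 0.993 to 1.44 FPKM. The inhibitor raised it in KO co-culture (0.29 ± 0.07, adjusted p 0.00238), a call lost under quantile normalization (0.08, adjusted p 0.352). Its call in WT co-culture (0.20 ± 0.08, adjusted p 0.0337) was lost without replicate 2 or 3 of either group (0.17 to 0.19), with no filter on low values (adjusted p 0.0686), with only the groups compared (adjusted p 0.0707) and under quantile normalization, where it was near 0. Its call in KO co-culture against monoculture (-0.20, adjusted p 0.0352) was lost without KO co-culture replicate 1 or 2 or monoculture replicate 2 (-0.16 to -0.19), and also under quantile normalization (-0.15), the other scaling (-0.17), no filter (adjusted p 0.0753) and only the groups compared (adjusted p 0.0544).

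Few of these genes passed between co-cultures with Phgdh knockout and wild-type cancer cells. Shares that rest on so few calls are descriptions and not a result about the family. Adam12, among the calls below, averaged under 1 FPKM in both co-cultures without inhibitor and entered the test through the other groups. In KO against WT co-culture 2 of the 19, or 10.5%, passed (1 higher, 1 lower), against 2.99% of all genes (1.65% higher, 1.34% lower). With the inhibitor in both groups 2, again 10.5%, passed (1 higher, 1 lower), against 2.31% (1.66% higher, 0.649% lower). Groups did not overlap for 6 members without and 5 with inhibitor, against 15.7% and 14.6% of all genes, and 0 members passed at a log2 fold change of at least 1, against 0.0176% of all genes in each. Adamts1 was 1.26-fold higher with KO cells without inhibitor (0.32 ± 0.04, adjusted p 8.02e-04) and 1.17-fold higher in KO+CXCR2i than in WT+CXCR2i (0.20 ± 0.04, adjusted p 0.0141). The first of these calls was lost when only both co-cultures were fitted (adjusted p 0.160), and the second without WT+CXCR2i replicate 2 (0.19, adjusted p 0.0670) or 3 (0.21, adjusted p 0.0549). Adamts10, whose product associates with fibrillin microfibrils, had 3.27, 3.72 and 2.79 FPKM in KO co-culture and 3.86, 4.85 and 4.74 in WT co-culture (-0.36 ± 0.08, adjusted p 0.0298). That call was lost without KO co-culture replicate 1 (-0.37) or 3 (-0.28) or WT co-culture replicate 2 (-0.32) or 3 (-0.33), with no filter on low values (adjusted p 0.0727) and with only both co-cultures fitted (adjusted p 0.364). With the inhibitor the groups overlapped (0.04 ± 0.08, adjusted p 0.923). Adamts10 averaged 4.71 FPKM in KO+CXCR2i, 4.57 in WT+CXCR2i and 2.71 in monoculture. Its difference between KO co-culture and monoculture did not pass in the main fit. It passed in some other settings, such as quantile normalization (0.25, adjusted p 0.0157). Adam12 was 1.31-fold lower in KO+CXCR2i than in WT+CXCR2i (-0.32 ± 0.05, adjusted p 0.00569), against 0.05 ± 0.06 between KO and WT co-culture (adjusted p 0.770), and the inhibitor call was lost with a pseudocount of 0.1 (adjusted p 0.0879). In the difference of inhibitor effects 2 of the 19 passed, Adam12 and Mmp13 as given above (0 higher, 2 lower), against 0.816% of all genes (0.535% higher, 0.281% lower).

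Genes that activate or hold these proteases at the cell surface were read from a list of 16, of which 11 were tested. In KO co-culture against monoculture 2 were higher and 6 lower (median -0.15), and in WT co-culture 2 were higher and 4 lower (median -0.05, against 0.01 over all genes in both), where 61.5% and 62% of all genes passed. With the inhibitor 6 were higher and 1 lower in KO (median 0.23) and 4 higher and 4 lower in WT co-culture (median 0.04), where 69.5% and 66.6% of all genes passed. Pcsk6, a furin-like convertase, averaged 38 ± 0.862 FPKM in KO co-culture, 40.3 ± 1.19 in WT co-culture and 8.30 ± 0.0934 in monoculture (2.07 and 2.15, adjusted p 4.71e-15 and 3.63e-15). Furin itself averaged 51.3 ± 0.955 FPKM in KO+CXCR2i, 52.1 ± 1.95 in WT+CXCR2i, 30.3 ± 0.737 in KO co-culture, 29.1 ± 1.80 in WT co-culture and 45.4 ± 0.329 in monoculture. Its log2 fold changes were -0.57 and -0.63 in KO and WT co-culture against monoculture and 0.74 and 0.82 with the inhibitor, all with adjusted p of at most 2.52e-08.

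Tspan5, a tetraspanin partner of ADAM10, was higher with the inhibitor, at 4.70 ± 0.356 FPKM in KO+CXCR2i, 4.40 ± 0.392 in WT+CXCR2i, 1.79 ± 0.0523 in KO co-culture and 1.75 ± 0.111 in WT co-culture (1.03 and 0.97, adjusted p 2.07e-09 and 9.30e-09). Frmd8, which stabilises the iRhom and ADAM17 complex, was lower at both steps, as Adam17 was. It averaged 18 ± 0.498 FPKM in KO+CXCR2i, 18.8 ± 0.599 in WT+CXCR2i, 24.5 ± 0.862 in KO co-culture, 24.6 ± 0.631 in WT co-culture and 31.7 ± 0.854 in monoculture. Bsg, whose product induces metalloproteinases in neighbouring cells, averaged 513 ± 21.3, 490 ± 34.6, 268 ± 17.0, 255 ± 20.6 and 325 ± 1.36 FPKM in the same order, with an inhibitor effect of 0.94 in both genotypes (adjusted p 4.08e-09 in KO and 9.33e-09 in WT).

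Of 10 genes of the plasminogen system and other inhibitors, 6 were tested. In KO co-culture against monoculture 2 were higher and 4 lower, and in WT co-culture 1 was higher and 3 lower, where 61.5% and 62% of all genes passed. The list medians were -0.70 and -0.45, against 0.01 over all genes in both. With the inhibitor 5 were higher and 0 lower in each genotype, where 34.8% of all genes were higher and 34.7% lower in KO, and 33.5% higher and 33% lower in WT co-culture. The list medians were 1.53 in KO and 1.32 in WT co-culture, against -0.01 over all genes in both. Plat, tissue plasminogen activator, averaged 21.8 ± 0.742 FPKM in KO+CXCR2i, 21.9 ± 0.383 in WT+CXCR2i, 2.75 ± 0.169 in KO co-culture, 3.14 ± 0.323 in WT co-culture and 6.45 ± 0.254 in monoculture. Plau, urokinase, averaged 5.29 ± 0.181, 5.63 ± 0.313, 1.73 ± 0.166, 1.81 ± 0.340 and 5.91 ± 1.32 FPKM in that order. Both passed in each of these co-culture and inhibitor comparisons, with the low point in co-culture that Adam12, Adam23 and Adam8 also had.

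Of 15 ADAMTS-like and astacin relatives, 6 were tested, and with the inhibitor 5 were higher and 1 lower in each genotype (median 1.19 in KO and 1.21 in WT co-culture, against -0.01 over all genes in both). Of all genes, 69.5% passed in KO and 66.6% in WT co-culture. Thsd4, an ADAMTS-like protein of microfibrils, averaged 4.01 ± 0.0979 FPKM in KO+CXCR2i, 3.70 ± 0.0296 in WT+CXCR2i, 0.0444 ± 0.00736 in KO co-culture, 0.0541 ± 0.00876 in WT co-culture and 0.0803 ± 0.0153 in monoculture. Tll1, an astacin protease that processes procollagen, averaged 2.27 ± 0.177, 2.82 ± 0.123, 0.155 ± 0.0680, 0.152 ± 0.0722 and 0.601 ± 0.109 FPKM in that order. Bmp1, its close relative, was the member that was lower with the inhibitor, by 0.20 in KO (adjusted p 0.00126) and 0.15 in WT co-culture (adjusted p 0.0120) on the log2 scale.

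All 11 AP-1 and ETS factors on the last list were tested, since sites of both families are known from metalloproteinase promoters. In KO co-culture against monoculture 2 were higher and 9 lower (30.3% and 31.2% of all genes), and in WT co-culture 2 were higher and 8 lower (30.1% and 31.9%). List medians were -0.77 and -0.53, against 0.01 over all genes in both. Etv4 and Etv5, ETS factors, were the higher ones (0.85 and 1.37 in KO, 1.15 and 1.46 in WT co-culture). With the inhibitor 5 were higher and 6 lower in KO (34.8% and 34.7% of all genes), and 5 higher and 5 lower in WT co-culture (33.5% and 33%). List medians were -0.26 and -0.02, against -0.01 over all genes in both. Fosl1, an AP-1 subunit, averaged 121 ± 4.81 FPKM in KO+CXCR2i, 118 ± 5.49 in WT+CXCR2i, 22.4 ± 1.20 in KO co-culture, 27.3 ± 2.14 in WT co-culture and 39.1 ± 2.10 in monoculture. Fos, another subunit, averaged 2.63 ± 0.494, 1.76 ± 0.101, 20.8 ± 0.724, 30.1 ± 1.75 and 93.4 ± 2.66 FPKM in that order. Between KO and WT co-culture 1 was higher and 5 lower (1.65% and 1.34% of all genes), and the lower ones were Fosb (-1.19), Fos (-0.51), Jun (-0.35), Etv4 (-0.30) and Fosl1 (-0.27).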

How the data were processed

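The deposited table gave FPKM per gene and library. HISAT2, GRCm38 and mm10 are named in the submitters' processing notes. For the version of HISAT2, the counting tool, the annotation and the use of strand, the answer is not given in the sources used here. RNA had been extracted with RNeasy mini kits, per the labels' protocols. Fragments were recovered from the deposited FPKM, where 100% of values came out whole within 0.1 fragment in all libraries but WT co-culture replicate 3 (99.99%), and were used for depths and 1 alternative. No pair of libraries was identical.

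The main test was limma 3.58.1 in R 4.3.3 on log2(FPKM + 1), with 1 mean per group over all 16 libraries (11 residual degrees of freedom), a variance trend, two-sided tests and Benjamini-Hochberg adjustment over the 11395 genes with a mean of at least 1 FPKM. The fit was tested on simulated data. Tables and figures used Python 3.11.15, pandas 2.3.3 and matplotlib 3.10.9. Genes named were the members with a group mean of at least 1 FPKM, and any other is said to be chosen after its values were seen or stands on a related list, from which examples were picked. Members and lists were chosen with earlier results of these data known.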

Additional observations from a re-analysis of the deposited data

Results flagged for a closer look

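Mmp13 and Adam12 stood out because the effect of the CXCR2 inhibitor differed between co-cultures with knockout and with wild-type cancer cells, by a test of that difference itself. For Mmp13 the difference of log2 changes was -0.82 ± 0.17 (SE; limma with Benjamini-Hochberg adjustment, adjusted p 0.0463), from 0.02 in KO and 0.83 in WT co-culture. For Adam12 it was -0.37 ± 0.08 (adjusted p 0.0463), from 1.72 in KO and 2.09 in WT co-culture. Leaving out 1 library at a time ended the Mmp13 call in 13 of 13 cases and the Adam12 call in 12 of 13, and their adjusted p over the other settings reached 0.449 for Mmp13 and 0.181 for Adam12.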

How the results depend on the processing

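Over 171 gene results (19 genes in 9 comparisons), 98 passed. Of these, 76 passed under all settings in which the gene was tested and 22 were lost in at least 1. The filter at a mean of 3 FPKM did not test genes below it, among them Adam23, Adam12, Mmp28 and Mmp13. Of the 73 that did not pass, 11 passed in at least 1 setting. Of the 73, 29 changed sign in at least 1 setting. Of the 98, 2 changed sign, both under quantile normalization, Adamts6 with the inhibitor in WT co-culture (-0.0034, adjusted p 0.974) and Adam9 in KO+CXCR2i against monoculture (0.018, adjusted p 0.697). The cause was not tested.

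A filter at a mean of 3 FPKM left 11 members to test, of which 7 passed in KO and 9 in WT co-culture against monoculture, 6 and 8 for the inhibitor in KO and WT, 10 and 9 for KO+CXCR2i and WT+CXCR2i against monoculture, 1 between KO+CXCR2i and WT+CXCR2i, and 0 for the difference of inhibitor effects. That difference also gave 0 with a pseudocount of 0.1, with no filter, with a filter at 0.1 FPKM, with voom on recovered fragments and with the replicate block, and 1 under quantile normalization, scaling without mitochondrial and the 50 most abundant genes, and the fit of only the groups compared. KO against WT co-culture gave 1 with no filter and 0 with only the groups compared, and KO+CXCR2i against WT+CXCR2i gave 1 with a pseudocount of 0.1. The filter at 0.1 FPKM and voom were chosen after seeing the data.

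Leaving out 1 library gave 14 to 16 calls in KO and 16 to 16 in WT co-culture against monoculture, 12 to 14 and 11 to 16 for the inhibitor in KO and WT, 17 to 17 and 15 to 16 for KO+CXCR2i and WT+CXCR2i against monoculture, 1 to 2 for KO against WT without and with inhibitor, and 0 to 2 for the difference of inhibitor effects. Once the mean of its group was subtracted from each library, the deviations of same-numbered libraries in different groups correlated at -0.300 to 0.270. They did so best with their own number, among 3 numbers, in 21 of 60 checks, so the numbers were not taken as pairs. The replicate block lost 4 calls and gained 1. Among all genes, the share of higher calls was 55.1% for KO against WT co-culture and 65.6% for the difference of inhibitor effects, and 43.8% and 77.3% when scaled without mitochondrial and the 50 most abundant genes. The planned edgeR and DESeq2 fits were not run. The deposited values are FPKM, and voom on recovered fragments was added instead.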

Other observations

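With the filter lowered to a mean of 0.1 FPKM, chosen after seeing the data, 16241 genes were tested with limma and Benjamini-Hochberg adjustment. Of these, 9357 passed for the inhibitor in KO and 8855 in WT co-culture, and 7727 and 7898 for KO and WT co-culture against monoculture. Mmp15 was lower with the inhibitor in KO (-0.55, adjusted p 6.68e-06) and WT co-culture (-0.73, adjusted p 8.16e-07). Adamts15, a proteoglycan-cutting protease, was lower in KO (-0.83, adjusted p 3.52e-08) and WT co-culture (-0.81, adjusted p 4.33e-08) than in monoculture. Mmp24, a membrane-type metalloproteinase, was lower in KO (-0.45, adjusted p 9.55e-04) and WT co-culture (-0.47, adjusted p 6.05e-04) than in monoculture and higher with the inhibitor (0.36 and 0.41, adjusted p 0.00251 and 0.00171). Adam11, a family member without protease activity, was higher with the inhibitor in KO (0.43, adjusted p 7.93e-06) and WT co-culture (0.42, adjusted p 1.99e-05). Levels were low, with group means of 0.0113 to 0.405 FPKM for Mmp24, 0.0141 to 0.416 for Adam11 and 0.0536 to 0.870 for Adamts15. All WT co-culture libraries together held 3 fragments of Mmp24 and 4 of Adam11. Mmp23 and Adam32, also tested at this filter, passed in no comparison.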
